A study of Homo sapiens with 6 samples.

Results

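GAS7, AFAP1, AFAP1L2, SHROOM3, SHROOM4, BASP1, MARCKS, MARCKSL1, PLEKHA5 and PLEKHA6 encode proteins that sit where the plasma membrane meets the actin cortex. These 10 genes were followed among the 57914 genes counted. Their rows were found by gene name, each name had 1 row, and all 10 passed the filter on low counts. BASP1 and PLEKHA6 were near the floor in the ALDH_High group described below, at 18 counts or fewer per library. GAS7, AFAP1L2, SHROOM4, BASP1 and PLEKHA6 had been chosen for large differences between the sorted groups, so their differences are described here and not tested. No numeric cut-off was set: the smallest log2 fold change among these 5 was 2.82 (AFAP1L2), and the largest in size among the other 5 was -0.69 (PLEKHA5). AFAP1, SHROOM3 and PLEKHA5 were added as paralogs of AFAP1L2, SHROOM4 and PLEKHA6. MARCKS and MARCKSL1 were added for their likeness in function to BASP1. These 5 were tested. They were not picked for their own values, but earlier results of these data were known when they were listed.

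RNA came from A375, an established human melanoma cell line, sorted after staining with Aldefluor, a substrate that turns fluorescent in cells with aldehyde dehydrogenase (ALDH) activity. ALDH_High is the 5% of cells with the brightest signal and ALDH_Low the 5% with the dimmest, each with 3 libraries. All 6 libraries share the line, its medium and the staining, so the comparison is within 1 line and has no unsorted control here. The labels do not say whether the replicates were separate cultures, and p-values then measure only the spread between these libraries. The question is how the transcriptome of the cells with the highest ALDH activity differs from that of the lowest.

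The cell cortex is a thin actin and myosin layer tied to the inner face of the membrane, and it sets the shape of a cell and how it extends or rounds up. F-BAR proteins such as GAS7 bend or sense membrane, AFAP and SHROOM proteins bind actin filaments and bring kinases to them, and the MARCKS group holds the lipid PIP2 at the membrane and releases it when calmodulin binds or protein kinase C phosphorylates it. PLEKHA proteins join a lipid-binding pleckstrin homology domain to partners at cell junctions. Melanocytes and their neural crest forebears are cells with long extensions and a history of migration, and such genes are commonly studied in melanoma for shape and invasion.

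Total counts per library lay between 26692868 and 37830603. ALDH1A3, the enzyme named in the title of the study, had TPM of 279, 519 and 504 in ALDH_High libraries 1, 2 and 3 and 149.5, 182 and 165 in ALDH_Low libraries, a rise of 1.32 on the log2 scale (SE 0.19, edgeR adjusted p 0.000734). The lineage factor SOX10 was present in every library, with at least 5835 counts, and so were CSPG4 (at least 7961) and PRAME (at least 3416), while the pigment markers MLANA and TYR had at most 3 and 2 counts. The melanocytic list moved with the sort: the summed level of its 11 genes was 1306 to 1820 CPM in ALDH_High and 640 to 709 CPM in ALDH_Low. Of 7 tested, 5 were higher and 1 lower in ALDH_High by edgeR. Over all 17047 genes tested, to be read beside each marker list, 10.8% were higher and 9.83% lower. SOX10 rose by 1.79 on the log2 scale, S100B by 4.28 and S100A1 by 4.75, while MITF, the melanocyte master regulator, fell by 0.92. Some markers of other cell types moved with the sort. The summed level of 8 epithelial markers was 154 to 308 CPM in ALDH_Low and 47.1 to 109 CPM in ALDH_High, carried mainly by the keratin KRT8, with EPCAM at 9 counts or fewer. This list did not move one way: of 4 tested, KRT8 and KRT5 fell by 2.09 and 3.63, CLDN4 rose by 2.18 (edgeR adjusted p 0.0179), and KRT14, at 0.58, did not pass. For 8 white blood cell markers the sums were 56.6 to 69.5 and 12.2 to 22.03 CPM, carried by CD68, a lysosomal protein, with PTPRC at 4 counts or fewer. For 5 endothelial markers they were 2.88 to 3.80 in ALDH_Low and 12.2 to 13.5 CPM in ALDH_High, carried by the receptor KDR. No marker of these lists was at 0 in every library, and their part in the results below was not tested. Since these are sorted bulk samples, fewer cells making an RNA and less of it per cell cannot be told apart.

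The stretch upstream of the start site is shown for BASP1 and PLEKHA6, the members that were lowest in ALDH_High, and for AFAP1L2, which went the other way. RefSeq (GRCh38.p14) gave a start site for 9 of the 10 members, and GAS7 was not matched. Each sequence is the 250 bases before the start on the gene's own strand, and all 3 windows lie inside the GENCODE 44 span of the gene, because the RefSeq start is downstream of the most upstream GENCODE transcript. Capitals mark matches to the motifs searched: CACGTG (the palindromic E-box), CATGTG (another E-box), ACAATG and ACAAAG (SOX cores), GCCNNNGGC (TFAP2), TGANTCA (AP-1), GGAATG (TEAD), GGGCGG (the GC box) and TATAAA, on either strand.
AFAP1L2, chr10:114404503-114404752, minus strand: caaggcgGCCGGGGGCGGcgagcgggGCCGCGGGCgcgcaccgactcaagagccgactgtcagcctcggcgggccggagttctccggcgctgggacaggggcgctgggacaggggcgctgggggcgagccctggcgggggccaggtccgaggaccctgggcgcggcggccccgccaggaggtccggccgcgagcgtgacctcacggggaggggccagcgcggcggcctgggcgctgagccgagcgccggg
BASP1, chr5:17216573-17216822, plus strand: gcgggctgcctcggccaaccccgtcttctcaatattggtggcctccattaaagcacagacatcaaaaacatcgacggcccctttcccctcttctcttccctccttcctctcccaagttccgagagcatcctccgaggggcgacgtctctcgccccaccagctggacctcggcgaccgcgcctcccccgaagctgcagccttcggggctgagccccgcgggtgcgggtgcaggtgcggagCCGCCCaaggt
PLEKHA6, chr1:204359930-204360179, minus strand: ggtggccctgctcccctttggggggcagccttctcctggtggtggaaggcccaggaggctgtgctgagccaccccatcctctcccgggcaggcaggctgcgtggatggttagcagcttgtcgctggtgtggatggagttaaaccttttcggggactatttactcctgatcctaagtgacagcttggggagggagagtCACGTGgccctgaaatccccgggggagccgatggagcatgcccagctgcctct
The AFAP1L2 window was 81.6% G and C with 37 CpG dinucleotides, that of BASP1 65.6% with 21 and that of PLEKHA6 62.4% with 7, beside medians of 58.0% and 11 over 27305 windows of the same length. AFAP1L2 held 2 TFAP2 matches, the first of which overlaps its GC box. BASP1 held 1 GC box, 11 bases before the start, and PLEKHA6 held 1 CACGTG, 53 bases before it. Over all windows, 42.3% held a GC box, 19.7% a TFAP2 match and 6.49% a CACGTG. Among the 9 members, 6 held a GC box, 3 a TFAP2 match and 1 a CACGTG. The SOX core ACAAAG was in 3 of them and in 13.7% of all windows, and ACAATG in 1 and in 9.45%. None held the CATGTG, AP-1, TEAD or TATAAA letters, which 9.54%, 6.60%, 11.9% and 11.1% of all windows hold. BASP1 and PLEKHA6, low in the same libraries, shared no motif of the set. A match is a stretch of letters and not a site of binding.

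GAS7, an F-BAR protein first described in growth-arrested cells and tied to the outgrowth of neurites (ENSG00000007237, chromosome 17, 9910606 to 10198606, GRCh38), was abundant in ALDH_High and scarce in ALDH_Low. Its TPM, which are corrected for gene length and scaled to the same total in every library, were 79.1, 72.8 and 75.4 in ALDH_High libraries 1, 2 and 3 and 2.49, 1.78 and 3.15 in ALDH_Low libraries 1, 2 and 3. Every ALDH_High library stood more than 20 times above every ALDH_Low library. The mean was 75.8 ± 3.20 against 2.47 ± 0.686 TPM (SD, n = 3), a ratio of 30.6, and the fitted log2 fold change of 4.88 (SE 0.22) was the 27th highest of 17047 genes tested. By TPM it was the second most abundant of the 10 in ALDH_High and the seventh in ALDH_Low.

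AFAP1L2 and SHROOM4 were also higher in ALDH_High. AFAP1L2, also called XB130, an adaptor that SRC family kinases phosphorylate (chromosome 10, 114294824 to 114404756), had 14.4, 17.1 and 17.3 TPM in ALDH_High and 2.32, 2.43 and 1.91 TPM in ALDH_Low. These are means of 16.3 ± 1.63 and 2.22 ± 0.277 TPM (SD, n = 3), with a log2 fold change of 2.82 (SE 0.14). The libraries of each group lay close together and the groups were far apart. SHROOM4, an actin-binding protein of the family that shapes epithelia (chromosome X, 50586796 to 50814302), had 3.75, 3.67 and 3.33 TPM in ALDH_High and 0.305, 0.280 and 0.298 TPM in ALDH_Low. It stayed a low-abundance transcript in both groups, at 688 to 830 counts in ALDH_High and 57 to 80 in ALDH_Low, and its log2 fold change was 3.56 (SE 0.17).

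BASP1 and PLEKHA6 had the opposite pattern and were close to absent in ALDH_High. BASP1, a myristoylated PIP2-binding protein of growing axons that also acts as a transcriptional co-repressor with WT1 (chromosome 5, 17065598 to 17276843), had 3, 11 and 18 counts in ALDH_High libraries 1, 2 and 3 and 429, 201 and 202 in ALDH_Low. The TPM were 0.107, 0.288 and 0.505 against 9.94, 6.03 and 6.11. ALDH_Low library 1 was the highest, and the ALDH_High libraries differed among themselves at counts this small. The mean of ALDH_Low was 24.5 times that of ALDH_High, with a log2 fold change of -4.64 (SE 0.41), the 10th lowest of all genes tested. An antisense gene, BASP1-AS1, overlaps it on the other strand and had 4 to 11 counts per library, 6, 6 and 7 of them in ALDH_High. Whether the counting used strand is not given in the sources used here, so the few BASP1 counts of ALDH_High are uncertain. Other genes that overlap a member had at most 9 counts in any library.

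PLEKHA6, a junction protein with pleckstrin homology and WW domains (chromosome 1, 204218853 to 204377665), had 7, 12 and 8 counts in ALDH_High and 414, 142 and 142 in ALDH_Low. In TPM this was 0.0678, 0.0987 and 0.0656 against 2.84, 1.26 and 1.27. As for BASP1, ALDH_Low library 1 held the most, here more than 2 times either of the other ALDH_Low libraries. The log2 fold change was -4.57 (SE 0.42), and -4.07 without that library. KRT8, the epithelial marker named above, also had its highest count (11096) in ALDH_Low library 1, and this was not tested against PLEKHA6.

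**Figure D1:**
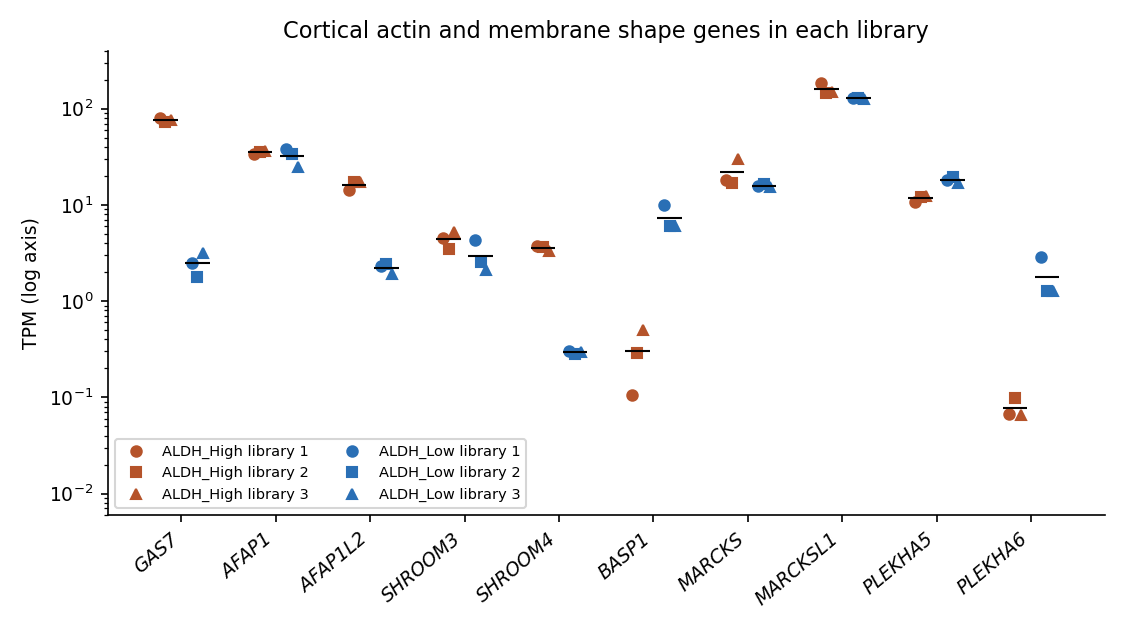
TPM of the 10 genes in each library on a log axis; symbols are libraries, brown for ALDH_High and blue for ALDH_Low, and bars are group means of 3 libraries. GAS7, AFAP1L2 and SHROOM4 are separated with ALDH_High on top, BASP1 and PLEKHA6 with ALDH_Low on top (24.5 and 23.2 times the ALDH_High mean), and AFAP1 and SHROOM3 overlap.

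Of the 5 added members, PLEKHA5 passed an adjusted p of 0.05 and the other 4 did not. The share called among all 17047 genes was 20.6% (10.8% higher and 9.83% lower in ALDH_High), so 1 of 5 lies near the background. Their CPM did not overlap between the groups for MARCKSL1 and PLEKHA5, 2 of the 5, where 37.8% of all genes were so separated. PLEKHA5, a phosphoinositide-binding relative of PLEKHA6 studied in melanoma spread to the brain (chromosome 12, 19129669 to 19376400), had 10.6, 12.0 and 12.5 TPM in ALDH_High and 18.2, 19.3 and 16.96 in ALDH_Low. All 3 ALDH_High libraries lay below all 3 ALDH_Low libraries, and it fell by 0.69 on the log2 scale (SE 0.11, edgeR adjusted p 0.00161), in the direction in which PLEKHA6 differed and by far less. It passed in all 15 alternatives, with adjusted p up to 0.0249.

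MARCKSL1, the small member of the MARCKS pair (chromosome 1, 32333839 to 32336233), was the most abundant of the 10 in both groups. Its TPM were 184, 146 and 150 in ALDH_High and 130, 129 and 125 in ALDH_Low. Library 1 stood above the other ALDH_High libraries, which came close to ALDH_Low, and the log2 fold change of 0.28 (95% interval -0.030 to 0.59, edgeR adjusted p 0.198) did not pass and was 0.12 without that library. MARCKS itself (chromosome 6, 113857345 to 113863475), the classical protein kinase C substrate at the membrane, had 18.2, 17.03 and 30.04 TPM in ALDH_High and 15.7, 16.6 and 15.2 in ALDH_Low. Only ALDH_High library 3 stood clearly apart, and the log2 fold change was 0.40 (95% interval -0.011 to 0.81, edgeR adjusted p 0.166) and 0.16 without that library.

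AFAP1, the SRC-binding actin crosslinker after which the family is named (chromosome 4, 7758714 to 7939926), had 33.5, 35.7 and 36.5 TPM in ALDH_High and 37.9, 33.5 and 24.8 in ALDH_Low. The groups overlapped, with a log2 fold change of 0.091 (95% interval -0.21 to 0.39, edgeR adjusted p 0.701) that turned to -0.042 without ALDH_Low library 3. SHROOM3, which recruits ROCK kinases to apical actin and narrows the cell top (chromosome 4, 76435229 to 76783253), had 4.50, 3.51 and 5.19 TPM in ALDH_High and 4.27, 2.54 and 2.11 in ALDH_Low. ALDH_Low library 1 lay among the ALDH_High values. The log2 fold change of 0.52 (95% interval -0.026 to 1.06, edgeR adjusted p 0.175) did not pass, and without ALDH_Low library 1 it was 0.87 with an edgeR adjusted p of 0.0205.

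Among the members followed here, the make-up of each pair or set by TPM was unlike in the 2 groups. These shares contain the genes chosen for their difference and are a description. They cover only genes among the 10, so neither the shares nor the sums are those of whole families. Relatives left out include SHROOM2 (mean TPM 48.3 in ALDH_High and 12.9 in ALDH_Low), SHROOM1 (7.34 and 15.5) and AFAP1L1 (22.9 and 10.9). Also left out are PLEKHA4 (21.4 and 8.24), PLEKHA7 (1.06 and 2.53) and GAP43 (3.02 and 1.08). BASP1, MARCKS and MARCKSL1 are set together by function. BASP1 made up 0.169 ± 0.113% of the summed TPM of BASP1, MARCKS and MARCKSL1 in ALDH_High and 4.84 ± 1.33% in ALDH_Low (SD, n = 3), so MARCKSL1 dominated this set in both. The share of MARCKS was 12.0 ± 4.04% and 10.5 ± 0.457%. AFAP1L2 took 31.5 ± 1.32% of the pair with AFAP1 in ALDH_High and 6.56 ± 0.715% in ALDH_Low. SHROOM4 took 45.2 ± 6.03% of the pair with SHROOM3 and 9.65 ± 2.86%. PLEKHA6 took 0.658 ± 0.148% of the pair with PLEKHA5 and 8.87 ± 4.02%, of which ALDH_Low library 1 had 13.5%. The summed TPM of SHROOM3 and SHROOM4 was 7.98 ± 0.709 in ALDH_High and 3.27 ± 1.15 in ALDH_Low, whereas for PLEKHA5 and PLEKHA6 it was 11.8 ± 0.974 and 20.0 ± 1.51.

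**Figure D2:**
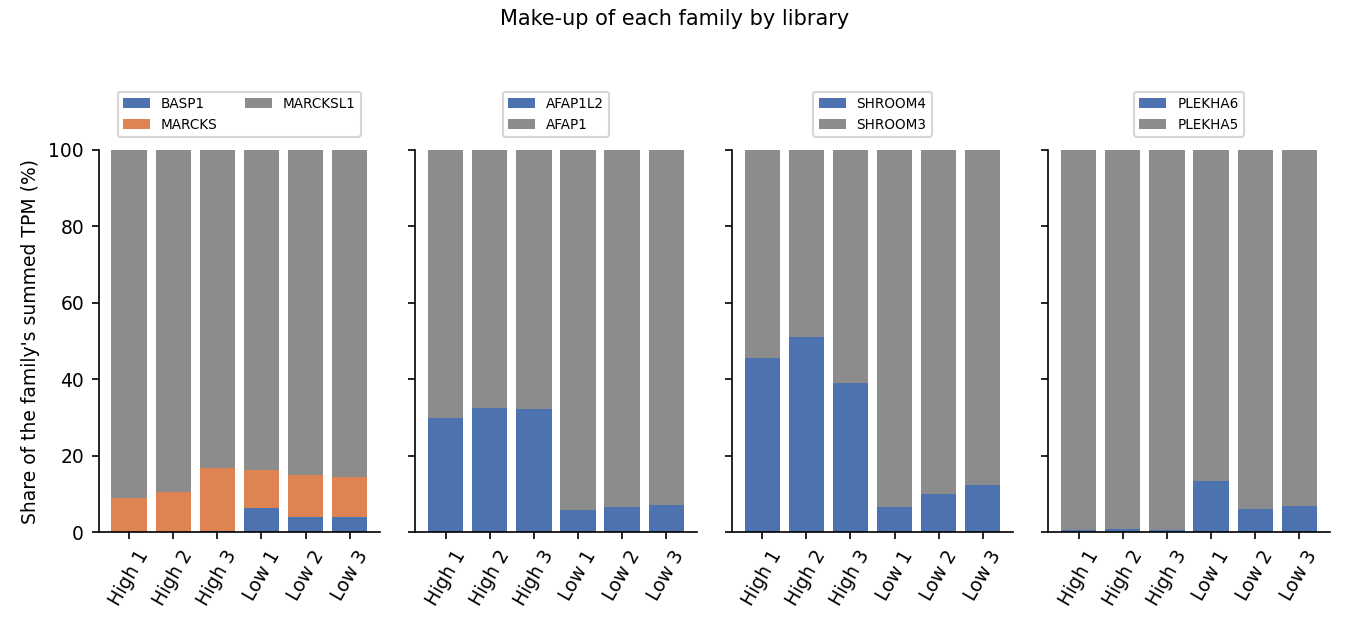
Share (percent, vertical axis from 0) of the summed TPM of the members shown, in the 6 libraries, with relatives outside the 10 genes left out. AFAP1L2 and SHROOM4 take 31.5% and 45.2% of their pairs on average in ALDH_High and 6.56% and 9.65% in ALDH_Low. BASP1 and PLEKHA6 are visible almost only in ALDH_Low.

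Further relatives of the members, listed by kinship (GAP43 by function) and not among the 10, gave a fuller view of the families. The list was made with earlier results of these data known, so the share called in it is a description and no independent support. All 6 were tested and all 6 passed, 4 higher and 2 lower in ALDH_High, where 20.6% of all genes did. SHROOM2, a relative that links actin and myosin at the cortex of endothelial and pigment epithelial cells, had 47.9, 51.3 and 45.8 TPM in ALDH_High and 13.2, 13.2 and 12.2 in ALDH_Low, and rose by 1.86 on the log2 scale (SE 0.11, edgeR adjusted p 6.12e-06). SHROOM1 went the other way, with 7.84, 6.78 and 7.41 TPM in ALDH_High and 14.4, 16.3 and 15.9 in ALDH_Low, and fell by 1.13 on the log2 scale (SE 0.15, edgeR adjusted p 0.000478). The 4 SHROOM genes thus held values on both sides of 0. AFAP1L1, an AFAP relative found at podosomes, rose by 1.01 (SE 0.15, edgeR adjusted p 0.00107), and AFAP1 was the one of 3 AFAP genes whose groups overlapped.

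GAP43, the growth cone protein usually grouped with MARCKS and BASP1 as a PIP2-holding substrate of protein kinase C, was higher in ALDH_High, against the direction of BASP1. Its TPM were 3.93, 2.86 and 2.27 in ALDH_High and 1.38, 0.861 and 1.01 in ALDH_Low, a log2 fold change of 1.42 (SE 0.33, edgeR adjusted p 0.0119). The call rests on few counts and was lost without ALDH_Low library 2 (edgeR adjusted p 0.0515) or library 3 (0.0508). It was also lost in limma on log2(TPM + 1) without a filter (limma adjusted p 0.0820). PLEKHA4 rose by 1.33 (SE 0.17, edgeR adjusted p 0.000437), from 8.24 ± 1.36 to 21.4 ± 1.69 TPM (SD, n = 3). PLEKHA7, which binds p120 catenin at adherens junctions, fell by 1.30 (SE 0.30, edgeR adjusted p 0.0120), with 1.25, 0.973 and 0.955 TPM in ALDH_High and 3.54, 1.83 and 2.21 in ALDH_Low. Leaving out ALDH_High library 2 gave an edgeR adjusted p of 0.0525, and leaving out ALDH_Low library 1 gave 0.0546, with a log2 fold change of -0.98 in the latter. PLEKHA7 lost its call in 5 of the 15 alternatives, those with limma included (limma adjusted p 0.0630 to 0.159).

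**Figure D3:**
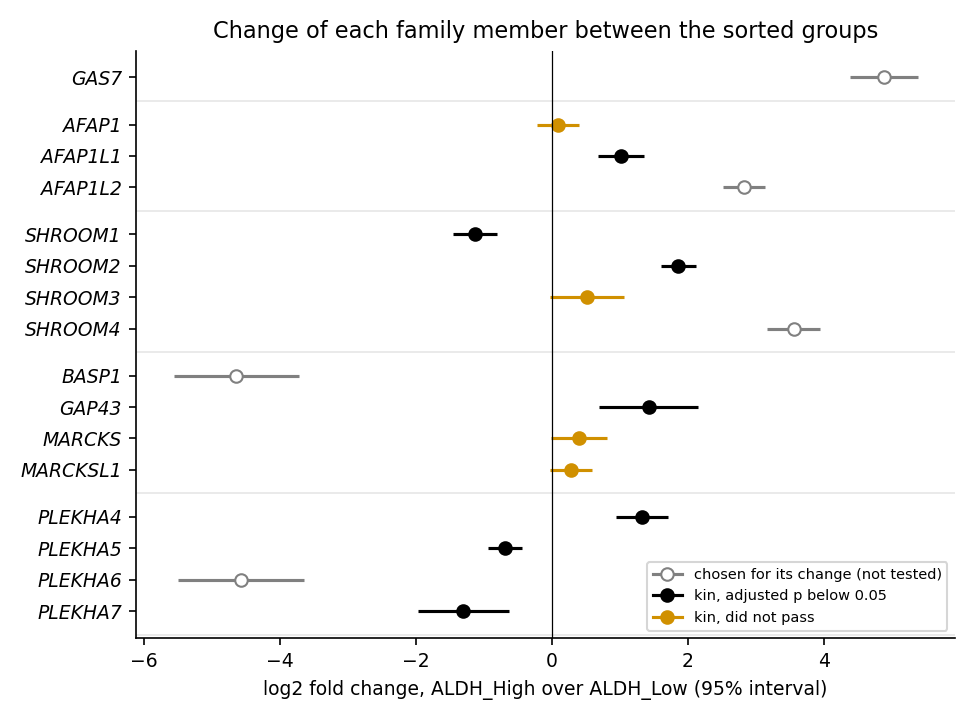
Log2 fold change of ALDH_High over ALDH_Low (horizontal axis) with its 95% interval for the 10 genes and 6 further relatives, grouped by family; open circles were chosen for their difference and not tested, black circles passed and ochre circles did not. Within the SHROOM and PLEKHA families, genes that were not chosen lie on both sides of 0. In the MARCKS and GAP43 group only BASP1, chosen for its difference, lies below 0.

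Genes of related structures were read from the same fit, in lists made by function. Earlier results of these data were known when the lists were made, so the shares called are a description. With the 6 relatives, 162 listed genes were tested and 56 passed (34.6%, beside 20.6% of all genes), 33 higher and 23 lower in ALDH_High; the difference between these shares was not tested. Without ALDH_High library 2, and likewise without ALDH_Low library 2, the lower genes numbered 14. Of 18 F-BAR proteins, the class of GAS7, 1 was higher and 6 were lower (38.9% called), with a median log2 fold change of -0.29 beside -0.013 for all genes. ARHGAP29, a RhoA-inactivating member, fell by 2.62 (SE 0.24, edgeR adjusted p 5.10e-05), from 25.4 ± 8.26 to 4.28 ± 1.23 TPM (SD, n = 3), and TRIP10, also called CIP4, fell by 0.58. SRGAP2, which induces membrane protrusions, rose by 0.86; it has near-identical duplicates, so its counts are uncertain. GAS7, whose side of 0 was set by its choice for a large difference, lay opposite to 6 of the 7 F-BAR genes that passed. The other 11 of the 18 did not pass.

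Among 12 I-BAR and N-BAR proteins, which bend membrane outward or inward, 2 were higher and 2 lower (33.3%). SH3GL2, the endophilin A1 of synaptic vesicle uptake, fell by 3.84 (SE 0.24, edgeR adjusted p 7.85e-06), from 11.7 ± 3.40 to 0.847 ± 0.139 TPM (SD, n = 3). BIN3 rose by 0.85 and MTSS1L fell by 0.70. Of 23 proteins that link membrane to cortex, 4 were higher and 5 lower (39.1%). The long-tailed class I myosin MYO1E rose by 1.41 and the spectrin adaptor ANK3 by 1.96, while EPB41L3, a band 4.1 protein, fell by 2.90, from 11.8 ± 4.15 to 1.63 ± 0.576 TPM. The classical linkers EZR, RDX and MSN did not pass, with log2 fold changes of -0.19, 0.25 and -0.33; these were named after their values were seen.

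Of 20 myosin II genes and regulators, 5 were higher and 1 lower (30.0% called, beside 20.6% of all genes). MYH14, the heavy chain of nonmuscle myosin IIC, rose by 2.83 (SE 0.24, edgeR adjusted p 3.78e-05), from 1.62 ± 0.580 to 11.9 ± 0.842 TPM (SD, n = 3). MYH10, the IIB chain, rose by 0.61 and the light chain MYL9 by 1.22. ROCK1 and ROCK2, the kinases bound by SHROOM proteins, did not pass, at -0.32 and 0.48, and were named after their values were seen. Of 22 crosslinkers and scaffolds, 2 were higher and 2 lower, and the 18.2% called is below the 20.6% of all genes. The adhesion protein VCL fell by 0.94, and the alpha-actinin ACTN1 rose by 0.45, a call lost when ALDH_High library 2 or ALDH_Low library 1 or 3 was left out (edgeR adjusted p 0.0539, 0.0614 and 0.0615).

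Of 27 genes of actin nucleation and turnover, 6 were higher and 3 lower (33.3% called, beside 20.6% of all genes). GSN, the filament-severing gelsolin, rose by 2.53 (SE 0.22, edgeR adjusted p 4.35e-05), from 38.1 ± 7.35 to 225 ± 52.7 TPM (SD, n = 3), the formin DAAM2 rose by 1.94, and the formin FMNL1 fell by 2.18. In the list of calmodulin, protein kinase C and PIP2 partners, which also holds SRC family kinases, 6 of 20 were higher and 2 lower (40%). PRKCD rose by 0.77, PRKCZ by 1.31 and the phospholipase PLCG1 by 0.52. Of 14 PLEKHA and junction partners, 3 were higher and 0 lower, and the 21.4% called is near the 20.6% of all genes. TSPAN33, the tetraspanin that PLEKHA7 and PDZD11 hold at junctions, rose by 1.74 (SE 0.25, edgeR adjusted p 0.000977), the protease ADAM10 by 0.73 and CTNND1 (p120 catenin) by 0.48. ADAM10 and CTNND1 each lost their call when any of 3 single libraries was removed: ADAM10 without ALDH_High library 2 or ALDH_Low library 1 or 3 (edgeR adjusted p 0.0756, 0.0676 and 0.0884), and CTNND1 without ALDH_High library 3 or ALDH_Low library 2 or 3 (0.0555, 0.0509 and 0.0696). Across the 15 alternatives ADAM10 lost its call in 6 and CTNND1 in 4, fits with limma among them. PDZD11 itself, also named afterwards, was at -0.035.

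**Figure D4:**
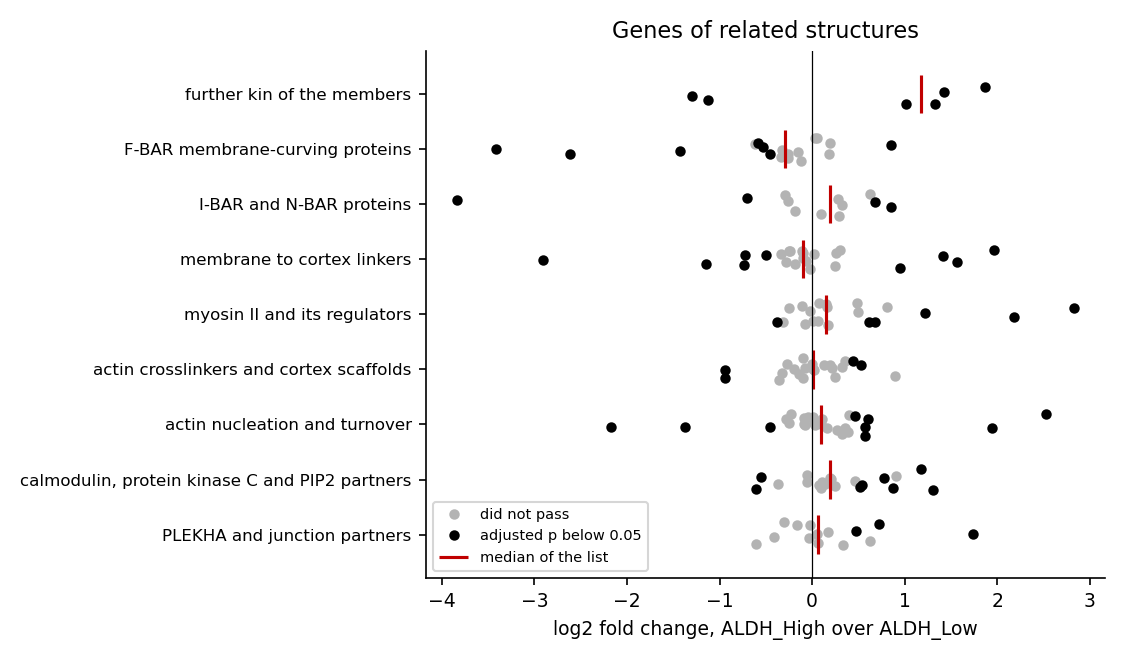
Log2 fold change (horizontal axis) of every tested gene in the 9 lists; black points passed an adjusted p of 0.05, grey points did not, and red bars are list medians. Most lists have black points on both sides of 0, and the lowest value is that of SH3GL2 (-3.84).

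The authors' deposited table holds log2 coefficients in which, by the column names, the high and low groups are each set against a group named 1A3. DESeq2 is among the tools in the submitters' notes, but its role is not stated there. The labels do not describe 1A3, and it was not analysed here. These log2 coefficients share that reference and the libraries above, so they add a position and no independent support. In the authors' deposited table GAS7 has 2.12 (SE 0.38) for the high group and -2.78 (SE 0.38) for the low group, and SHROOM4 has 1.58 and -2.0002, so the reference lies between the groups. AFAP1L2 has 1.94 and -0.90 in the authors' deposited table, and PLEKHA6 has -1.65 and 2.91. BASP1 differs from these in the authors' deposited table, with 0.077 (SE 0.70) for the high group and 4.73 (SE 0.66) for the low group, so that only the low group stands away from the reference. For MARCKS the authors' deposited table gives 2.66 and 2.24, and for AFAP1 1.44 and 1.32: both genes are above the reference in both sorted groups by much more than they differ between them.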

How the data were processed

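RNA sequencing libraries of A375 cells, 3 from the brightest and 3 from the dimmest 5% by Aldefluor, were compared. Per the submitters' processing notes, FastQC 0.11.3, STAR 2.5.1b, HTSeq 0.6.1, DESeq2 and the GRCh38 build were used, with no role or order stated; the annotation release is not given in the sources used here. The authors deposited estimated counts rounded to whole numbers, as the values show: 133 to 177 genes per library have a count of 0 beside a TPM above 0. The same test was kept as for raw counts. TPM, deposited by the authors, sum to 1000000 per library and rest on gene lengths that are not stated. The authors' deposited table also holds log2 coefficients, named in the header as against 1A3.

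Here, the quasi-likelihood F-test of edgeR 4.0.16 under R 4.3.3 (two-sided, no covariates) was run on genes kept by filterByExpr with TMM scaling, with Benjamini-Hochberg adjustment over all 17047 genes and a threshold of 0.05. Each SE was obtained from the fitted log2 value and its F statistic, and 95% intervals use the t quantile of the fit. CPM in the marker sums use total counts. The test was tried on simulated data with known changes. The 261 rows that carry an identifier and no plain gene name held 0.0213% to 0.0267% of counts and stayed in. Of 171 listed companion genes, 5 septins, whose names the table holds as dates, were matched by identifier. Positions are from GENCODE 44. The named genes are the 10 members, their 6 further relatives, and the 3 genes with the smallest p among those past the threshold in each other list; an item that falls under this rule is not reported here. Members and lists were chosen with earlier results of these data known. Alternatives were other scalings and filters, DESeq2 1.42.0, limma 3.58.1 on log2 TPM, the replicate number as a block, and each library left out. Counting limits cover counting error only. Values are SD with n = 3.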

Additional observations from a re-analysis of the deposited data

How the results depend on the processing

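GAS7, AFAP1L2, SHROOM4, BASP1 and PLEKHA6 kept their direction in every alternative that gave a value. On log2(TPM + 1) low genes shrank by construction, to 1.82 for SHROOM4, -2.66 for BASP1 and -1.33 for PLEKHA6. BASP1 and PLEKHA6 gave no value with at least 10 counts in every sample, and PLEKHA6 none in limma with a mean TPM of at least 1. AFAP1 lay between -0.042 and 0.23 with 1 library left out, and was below 0 without ALDH_Low library 3 alone. The number of the 5 added members called was 2 without a filter on low counts, where SHROOM3 also passed, and 1 to 2 when single libraries were omitted. Without a filter, limma on log2(TPM + 1) called 2006 of all genes, with 1155 higher and 851 lower against 1838 and 1675; lower genes were 1047 and 1051 in limma with pseudocounts 1 and 0.1, and 1073 to 2049 across the fits leaving out a library, lowest without ALDH_High library 2. Listed companion genes called fell from 56 to 28 in limma without a filter (19 higher, 9 lower), lower ones to 13 in limma with either pseudocount, and to between 14 and 26 across the fits leaving out a library. All genes called numbered 2488 to 4221 across the fits leaving out a library, the most without ALDH_High library 1. That library lay apart from ALDH_High libraries 2 and 3 on the second axis of a principal component analysis (49.1 against -22.0 and -32.5). What causes these shifts was not tested. Of the 30 named companion genes, 21 kept their call in all 15 alternatives. With a replicate block 3748 genes passed against 3513, with 59 companion genes and 1 of the 5 added members. High and low libraries of equal number deviated together with correlations of 0.15, 0.076 and 0.11. The labels do not state a pairing, so the main fit used none. Whether equal numbers share a culture or a sort was not tested. Each high library correlated best with the low library of its own number. Depth limits BASP1 and PLEKHA6 in ALDH_High, at 18 counts or fewer per library.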

Other observations

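The nearest tested protein-coding gene on each side of the 10 members was read from the same fit, a comparison made by position after the members' values were known. Of these 20 neighbours 7 passed, beside 20.6% of all genes. Beside the 5 members chosen for their difference, 4 of 10 neighbours passed, 2 in the direction of the member and 2 against it. GOLT1A, 4.87 kb from PLEKHA6, fell by 3.39 on the log2 scale (SE 0.40, edgeR adjusted p 0.000260), with 0.247 TPM in ALDH_High and 2.67 in ALDH_Low on average. On the other side of PLEKHA6, 18.8 kb away, PPP1R15B was at 0.11 (edgeR adjusted p 0.625). MYO10, a myosin of filopodia and 129 kb from BASP1, fell by 1.29 (SE 0.14, edgeR adjusted p 0.000159). Next to members that were higher, GLP2R beside GAS7 (18.5 kb) fell by 1.92 and ABLIM1, an actin-binding LIM protein beside AFAP1L2 (26.4 kb), fell by 1.02, against the direction of the member. Among the neighbours of the 5 added members, PIK3C2G (481 kb from PLEKHA5, which also fell) fell by 3.94 (SE 0.62). It rests on few counts: 1, 3 and 3 in ALDH_High and 77, 18 and 26 in ALDH_Low. LAMA4 (1602 kb from MARCKS) rose by 1.46 and HDAC1 (0.204 kb from MARCKSL1) fell by 0.34. MARCKS and MARCKSL1 did not pass, so no direction is compared for them. Neither neighbour of SHROOM4 passed, at 0.83 for CCNB3 and 0.40 for NUDT11.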
